A study of Homo sapiens with 6 samples.

Results

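The ERBB receptors EGFR, ERBB2 and ERBB3, their ligands HBEGF, EREG, TGFA, BTC and NRG1, and the receptor inhibitor ERRFI1 were followed in MDA-MB-231 cells given one of 2 miRNA precursors. MDA-MB-231 is an established human breast cancer cell line that lacks hormone receptors. One group received the precursor of hsa-miR-205-5p, another that of hsa-miR-214-3p and the control group a scrambled precursor, all by lipid reverse transfection, and RNA was collected 72 h later. Each group had 2 samples, each hybridized to its own 1-colour Agilent array, so that 6 arrays were compared. The members were the genes whose RefSeq transcript is named by a probe, 9 genes with 15 probes among 21743 named genes and 50599 probes in all. Of these, 8 genes and 12 probes passed the filter on dim probes, under which a probe had to be well above background on each array of a group, in 1 group or more. BTC did not pass. The labels do not say whether the samples of a group came from separate cultures, so p-values measure the spread between these samples only, which may be technical.

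ERBB receptors are tyrosine kinases of the cell surface that pair up when a ligand binds and then signal through the RAS to ERK and PI3K to AKT cascades. EGFR binds HBEGF, EREG, TGFA and BTC. ERBB2 has no known ligand and serves as partner of the others, and ERBB3, which has little kinase activity of its own, binds NRG1 and recruits PI3K. The ligands are made as membrane-anchored precursors and released by ADAM proteases. ERRFI1, also known as MIG6, is induced by receptor signaling and in turn binds and inhibits the kinase domain of EGFR. In breast tumours ERBB2 is the amplified receptor of a whole subtype, whereas MDA-MB-231 is used as a model without that amplification. ERBB3 is a reported target of miR-205.

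The mature miRNAs made from the precursors are shown because their seeds, bases 2 to 8 in capitals, are the part that pairs with a target mRNA. The sequences and positions are those of RefSeq on GRCh38.p14, at chr1:209432166-209432187 on the + strand for hsa-miR-205-5p and chr1:172138816-172138837 on the - strand for hsa-miR-214-3p. Each is 22 bases long, and their seeds hold the same base at 1 of 7 positions.
hsa-miR-205-5p: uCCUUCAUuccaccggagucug
hsa-miR-214-3p: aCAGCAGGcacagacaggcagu
A full match to the seed reads AUGAAGG in a target of hsa-miR-205-5p and CCUGCUG in a target of hsa-miR-214-3p. Target sites in the member transcripts were not analysed here.

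All levels are normalized log2 signals, the log2 intensity of a probe minus the 75th percentile of its array, so that 1 unit is a 2-fold difference and 0 is the level of that percentile. Each probe is given by the RefSeq transcript it is named for, but which other transcripts of its gene it also detects was not checked, so its values are not those of a single transcript. A level of one probe cannot be set against that of another, and only differences between groups are compared. A gene was called higher or lower when its probe with the highest mean signal changed at least 2-fold with an adjusted p under 0.05 in limma. Between 20813 and 24759 of 58717 spots per array were well above background, with 0 saturated spots. The arrays lay on 1 slide, and with 2 per group their number limits the precision.

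In hsa-miR-205-5p cells HBEGF fell and the ERBB3 probe named for a short transcript rose, while no other member was called. In hsa-miR-214-3p cells ERRFI1 fell and no other member was called. Against the scrambled control, hsa-miR-205-5p gave 1 of 8 member genes called lower and 1 called higher, where 7.98% and 4.78% of all 11974 genes were. For hsa-miR-214-3p the counts were 1 lower and 0 higher, where 2.03% and 1.09% of all genes were, and at an unadjusted p they were again 1 and 0, by limma and by the methods' t-test. At these shares neither count stands apart from the background. Of the 12 member probes, 3 lay lower and 7 higher in both hsa-miR-205-5p arrays than in both control arrays, where 28.7% and 33.6% of all 18468 probes did. For hsa-miR-214-3p 4 lay lower and 5 higher, where 28.6% and 26.8% of all probes did. The median log2 difference of the 12 probes from control was 0.60 for hsa-miR-205-5p and 0.07 for hsa-miR-214-3p, beside 0.05 and -0.01 over all probes. With 1 probe for each of the 8 genes these medians were 0.46 and -0.16, beside 0.08 and -0.01 over all genes. The plot of normalized signals by array shows all 12 probes.

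**Figure D1:**
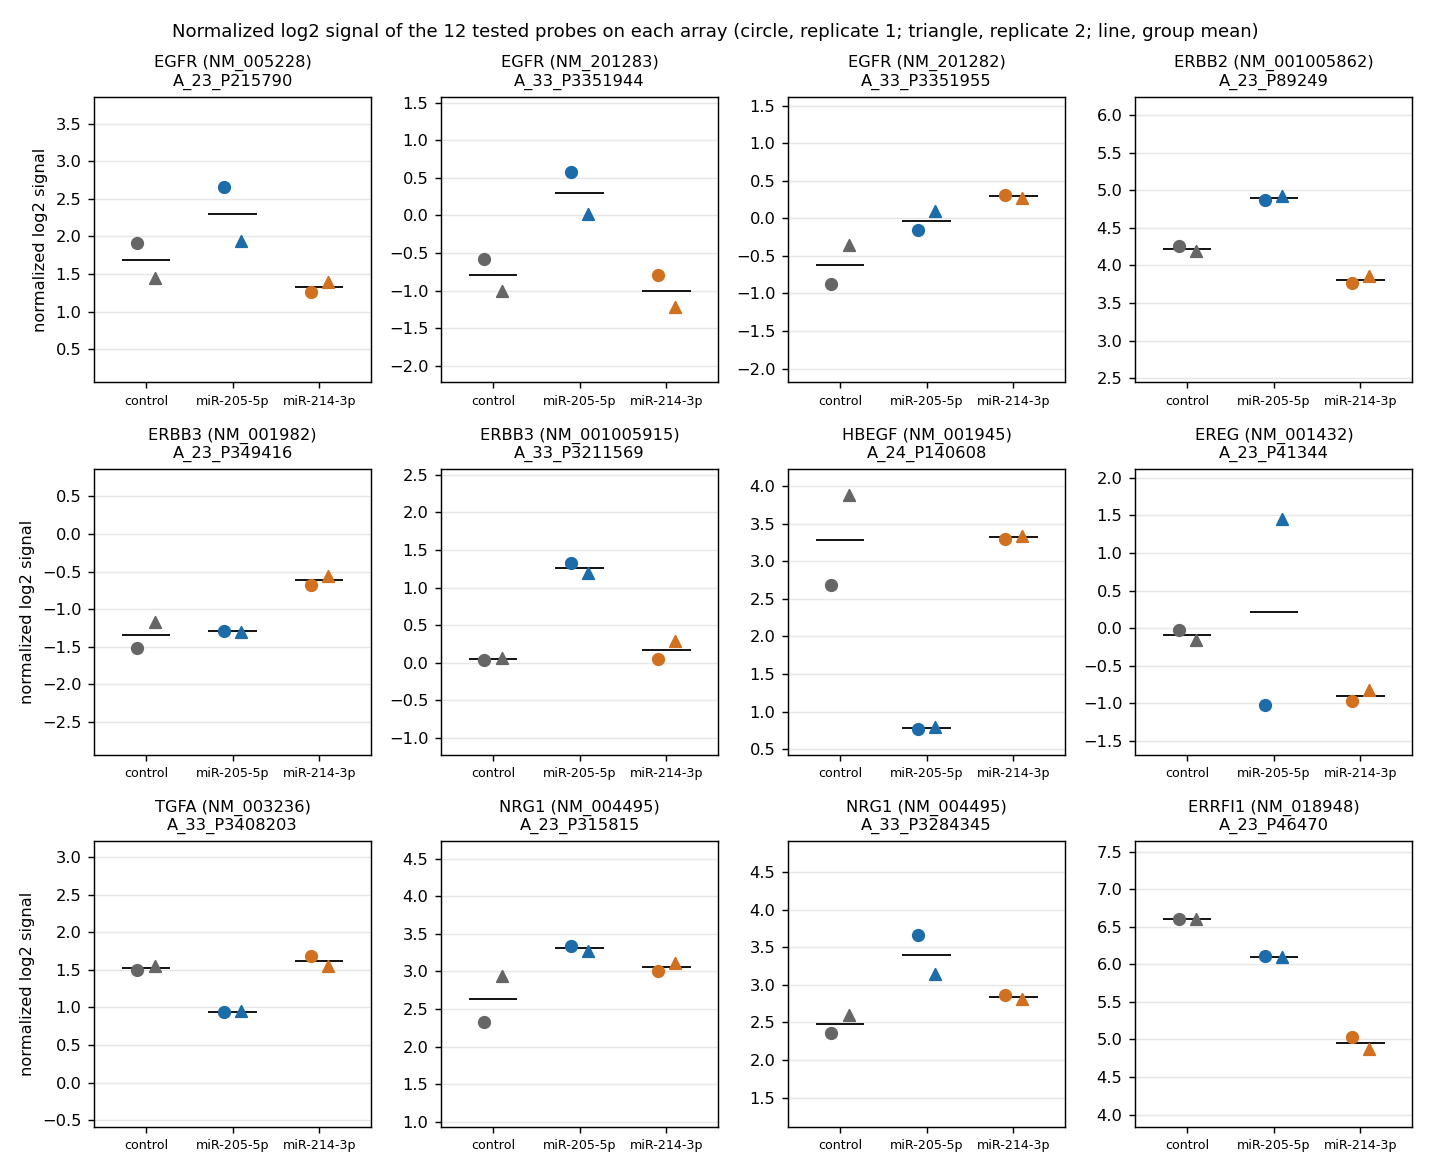
Normalized log2 signal (vertical axis, log2 units relative to the 75th percentile of the array) of the 12 tested probes in control, miR-205-5p and miR-214-3p cells; circles are replicate 1, triangles replicate 2 and lines group means of 2 arrays, and every panel spans the same number of log2 units. HBEGF sits at 0.78 and 0.79 in hsa-miR-205-5p cells and above 2.6 on the other 4 arrays, and the EREG replicates of hsa-miR-205-5p lie apart at -1.02 and 1.46.

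EGFR was measured by 3 probes, one named for the full-length transcript (NM_005228) and the others for short transcripts that encode secreted forms without the kinase (NM_201283 and NM_201282). The full-length probe of EGFR read 2.66 and 1.94 in hsa-miR-205-5p cells, 1.26 and 1.39 in hsa-miR-214-3p cells and 1.91 and 1.45 in control cells. Both hsa-miR-205-5p values lay above both control values, though the lower of them by little. The difference from control was 0.62 ± 0.30 (SE, adjusted p = 0.196, limma), with a 95% interval from -0.13 to 1.37. It was 0.26 without hsa-miR-205-5p replicate 1, 0.98 without replicate 2 and 0.39 without scrambled control replicate 2, and 0.34 with normexp and 0.23 scaled to the median. For hsa-miR-214-3p the difference of this EGFR probe was -0.36 (adjusted p = 0.522), with an interval from -1.11 to 0.39, and ran from -0.13 without scrambled control replicate 1 to -0.59 without replicate 2. The probe named for the short transcript NM_201283 followed the same order, with EGFR values of 0.58 and 0.01, -0.79 and -1.22, and -0.58 and -1.01 in these groups. Its difference from control in hsa-miR-205-5p cells was 1.09 ± 0.29 (SE) and missed the threshold at an adjusted p of 0.0538, which became 0.0329 with the replicate block, 0.0359 under the stricter filter, which asks for all 6 arrays, and 0.0472 with the percentile taken over the probes passing it, and it was called at an unadjusted p. The same EGFR difference was 0.49 (adjusted p = 0.0807) with normexp, 0.70 (adjusted p = 0.189) scaled to the median and 0.81 to 1.38 without one array, with adjusted p from 0.0505 to 0.187. The probe named for NM_201282 gave -0.16 and 0.09 in hsa-miR-205-5p cells, 0.31 and 0.27 in hsa-miR-214-3p cells and -0.88 and -0.35 in control cells, so that both precursor groups lay above the control. For this EGFR probe the difference in hsa-miR-214-3p cells was 0.91 (adjusted p = 0.101), and without scrambled control replicate 2 it became 1.17 with an adjusted p of 0.0312, but 0.65 (adjusted p = 0.113) without replicate 1 and 0.24 (adjusted p = 0.289) with normexp. The 3 EGFR probes thus differed in sign between hsa-miR-214-3p and control, at -0.36, -0.21 and 0.91, none of which passed the test.

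ERBB2 was measured by 1 probe (NM_001005862) with 10 spots per array, whose coefficient of variation within an array lay between 2.20% and 8.65%. The ERBB2 signal was 4.87 and 4.92 in hsa-miR-205-5p cells, 3.77 and 3.85 in hsa-miR-214-3p cells and 4.26 and 4.19 in control cells. The 3 groups did not overlap, with hsa-miR-205-5p highest and hsa-miR-214-3p lowest. In hsa-miR-205-5p cells ERBB2 was 1.59-fold higher than in control cells (log2 difference 0.67 ± 0.15 SE, adjusted p = 0.0360, limma), below the 2-fold limit of a call. This ERBB2 difference was 0.28 (adjusted p = 0.331) scaled to the median, 0.37 (adjusted p = 0.0963) with normexp and 0.45 (adjusted p = 0.083) in the authors' table. It also lost the threshold in the fit on the 4 arrays or without either hsa-miR-214-3p array (adjusted p = 0.117 each), with the replicate block (adjusted p = 0.0701) and without the filter (adjusted p = 0.0816), and without hsa-miR-205-5p replicate 1 (adjusted p = 0.122) or replicate 2 (adjusted p = 0.154). In hsa-miR-214-3p cells the difference was -0.41 (adjusted p = 0.190), with an interval from -0.79 to -0.04 before adjustment.

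ERBB3 had 3 probes, and they did not move together. The probe named for the short transcript NM_001005915, which encodes a truncated receptor that is secreted, read 1.32 and 1.20 in hsa-miR-205-5p cells, 0.05 and 0.29 in hsa-miR-214-3p cells and 0.04 and 0.06 in control cells. This ERBB3 probe was 2.32-fold higher in hsa-miR-205-5p cells than in control cells (log2 difference 1.21 ± 0.17 SE, adjusted p = 0.0125, limma), and 12.3% of all probes changed more in that comparison. The ERBB3 probe named for the full-length transcript NM_001982 was dim, at -1.29 and -1.30 in hsa-miR-205-5p cells, -0.68 and -0.56 in hsa-miR-214-3p cells and -1.51 and -1.18 in control cells, and on hsa-miR-205-5p replicate 2 it was not well above background. Its difference between hsa-miR-205-5p and control was 0.05 (adjusted p = 0.866), with an interval from -0.41 to 0.50, and its sign turned, from 0.22 without scrambled control replicate 2 to -0.12 without replicate 1 and -0.34 scaled to the median. For hsa-miR-214-3p the full-length probe of ERBB3 gave 0.73 ± 0.18 (SE, adjusted p = 0.101), which became 0.90 (adjusted p = 0.0323) without scrambled control replicate 2 and 0.22 with normexp. The third ERBB3 probe (A_33_P3280471) was not well above background on any array. The call of the ERBB3 probe named for NM_001005915 was lost without hsa-miR-205-5p replicate 1 (1.15, adjusted p = 0.0601) or replicate 2 (1.28, adjusted p = 0.0658) and without the filter on dim probes (adjusted p = 0.0668), and the mean of both kept ERBB3 probes was 0.63. Scaling to the median or a normexp background correction left it at 0.82 and 0.71, under 2-fold.

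HBEGF, a ligand of EGFR and ERBB4 whose anchored precursor is also the diphtheria toxin receptor, showed the largest change from control among the member probes. Its processed intensity was 71.4 and 60.8 in hsa-miR-205-5p cells, 477 and 370 in hsa-miR-214-3p cells and 323 and 855 in control cells. As normalized log2 signal HBEGF read 0.78 and 0.79, then 3.30 and 3.34, then 2.68 and 3.88 in the same order. Both hsa-miR-205-5p arrays lay below all other arrays, whereas the hsa-miR-214-3p arrays fell between the control arrays, which were 1.20 apart. HBEGF was 5.65-fold lower in hsa-miR-205-5p cells than in control cells (log2 difference -2.50 ± 0.39 SE, interval -3.48 to -1.52, adjusted p = 0.0157, limma), and 0.931% of all probes changed more. In hsa-miR-214-3p cells HBEGF differed from control by 0.04 (adjusted p = 0.969), with an interval from -0.94 to 1.02, and it ran from -0.56 without scrambled control replicate 1 to 0.64 (adjusted p = 0.045) without replicate 2. The HBEGF difference lay between -3.10 and -1.90 over the alternatives, but the call was lost without either hsa-miR-205-5p array (adjusted p = 0.0656 without replicate 1 and 0.0761 without replicate 2), without either hsa-miR-214-3p array (adjusted p = 0.0513 each), in the fit on the 4 arrays compared (adjusted p = 0.0513), without the filter on dim probes (adjusted p = 0.0624) and by the methods' t-test (unadjusted p = 0.0531).

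TGFA, a ligand of EGFR, did not pass the test against control for either precursor. The kept TGFA probe (A_33_P3408203) read 0.94 and 0.95 in hsa-miR-205-5p cells, 1.68 and 1.56 in hsa-miR-214-3p cells and 1.50 and 1.55 in control cells. The hsa-miR-205-5p arrays lay below the other 4. The TGFA difference from control was -0.58 ± 0.15 (SE) in hsa-miR-205-5p cells, with an adjusted p of 0.0521 (-0.97 and adjusted p = 0.0236 scaled to the median, -0.60 and adjusted p = 0.0347 without scrambled control replicate 1), and 0.10 (adjusted p = 0.748) in hsa-miR-214-3p cells. A second TGFA probe (A_23_P377291) was not well above background on any array.

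EREG, a ligand of EGFR and ERBB4, could not be placed in hsa-miR-205-5p cells because the replicates disagreed. EREG read -1.02 and 1.46 there, -0.97 and -0.83 in hsa-miR-214-3p cells and -0.03 and -0.16 in control cells. Its difference from control was 0.31 ± 0.77 (SE, adjusted p = 0.790, limma) for hsa-miR-205-5p, and it turned from 1.55 without replicate 1 (adjusted p = 0.0396) to -0.93 without replicate 2 (adjusted p = 0.092). Against hsa-miR-214-3p the EREG difference likewise ran from 2.36 without hsa-miR-205-5p replicate 1 (adjusted p = 0.0226) to -0.12 without replicate 2. In hsa-miR-214-3p cells both EREG values lay below both control values, at a difference of -0.81 (adjusted p = 0.574), or -0.41 with normexp.

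NRG1, the ligand of ERBB3 and ERBB4, had 2 probes named for 1 transcript (NM_004495). The NRG1 probe A_23_P315815 read 3.35 and 3.27 in hsa-miR-205-5p cells, 3.00 and 3.12 in hsa-miR-214-3p cells and 2.32 and 2.95 in control cells. The NRG1 probe A_33_P3284345 read 3.66 and 3.14, 2.87 and 2.82, and 2.36 and 2.60 in the same order. On both probes every precursor array lay above both control arrays, with hsa-miR-205-5p highest. The hsa-miR-205-5p difference from control was 0.67 (adjusted p = 0.108) on the first NRG1 probe and 0.92 (adjusted p = 0.0449) on the second, under 2-fold on each. The second NRG1 value was 0.66 (adjusted p = 0.154) without hsa-miR-205-5p replicate 1, 0.53 (adjusted p = 0.236) scaled to the median and over the threshold without any one of the other arrays, with adjusted p from 0.0706 to 0.114. For hsa-miR-214-3p the NRG1 differences were 0.43 (adjusted p = 0.355) and 0.36 (adjusted p = 0.403). The first NRG1 probe depended on the control arrays, at 0.36 without scrambled control replicate 1 and 0.98 (adjusted p = 0.0268) without replicate 2 for hsa-miR-205-5p, and at 0.12 and 0.74 (adjusted p = 0.0424) for hsa-miR-214-3p. BTC, a ligand of EGFR and ERBB4, was not well above background on any array, and its processed intensity ranged from 2.39 to 7.99.

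ERRFI1, the feedback inhibitor of EGFR, was the member called in hsa-miR-214-3p cells. It read 5.04 and 4.87 in hsa-miR-214-3p cells, 6.11 and 6.10 in hsa-miR-205-5p cells and 6.61 on both control arrays. The groups did not overlap, and each precursor group lay below the control. ERRFI1 was 3.14-fold lower in hsa-miR-214-3p cells than in control cells (log2 difference -1.65 ± 0.15 SE, interval -2.04 to -1.27, adjusted p = 0.0258, limma), and 1.74% of all probes changed more. In hsa-miR-205-5p cells the ERRFI1 difference from control was -0.50 (adjusted p = 0.0765), and -0.89 (adjusted p = 0.0321) scaled to the median, -0.75 (adjusted p = 0.0372) with normexp and -0.67 (adjusted p = 0.0408) in the authors' table. The hsa-miR-214-3p difference lay between -1.82 and -1.57 over the alternatives, but the ERRFI1 call was lost without hsa-miR-214-3p replicate 1 (adjusted p = 0.179) or replicate 2 (adjusted p = 0.243), without either hsa-miR-205-5p array (adjusted p = 0.0752 each), without scrambled control replicate 1 (adjusted p = 0.0532), in the fit on the 4 arrays compared (adjusted p = 0.0752) and without the filter on dim probes (adjusted p = 0.148). By the methods' t-test its unadjusted p was 0.0026 and its adjusted p 0.209. With the replicate number as a block the ERRFI1 adjusted p was 0.0728.

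The precursors were also compared directly, on the arrays already used against control, and 1 of 8 member genes was lower and 3 were higher in hsa-miR-205-5p than in hsa-miR-214-3p cells. Over all genes 11.3% were lower and 9.18% higher. Of the 12 probes, 4 lay lower and 7 higher without overlap, where 35.2% and 43.2% of all probes did. HBEGF was lower by 2.54 on the log2 scale. The members called higher in hsa-miR-205-5p cells were ERBB2 (log2 difference 1.08, adjusted p = 0.0076, limma), the ERBB3 probe named for the short transcript (1.09, adjusted p = 0.0097) and ERRFI1 (1.15, adjusted p = 0.0071). The EGFR probe named for NM_201283 was also higher, by 1.30 ± 0.29 (SE, adjusted p = 0.0249), and the full-length EGFR probe missed the threshold at 0.98 (adjusted p = 0.0575), though it reached 1.00 (adjusted p = 0.0495) in the authors' table and was 0.62 without hsa-miR-205-5p replicate 1. The full-length ERBB3 probe went the other way at -0.68 (adjusted p = 0.0400), as did TGFA at -0.67 (adjusted p = 0.0254), both under 2-fold, and each lost the threshold without any one of the 4 precursor arrays. All of these calls were lost without hsa-miR-214-3p replicate 1, where adjusted p ran from 0.0587 for ERRFI1 to 0.0861 for ERBB3, or without replicate 2, where it ran from 0.0672 for ERBB3 to 0.144 for the EGFR probe. The ERBB3 and EGFR probe calls were also lost without hsa-miR-205-5p replicate 1 (adjusted p = 0.0530 and 0.0995). Under 2-fold were also ERBB2 at 0.86, ERRFI1 at 0.92 and ERBB3 at 0.87 scaled to the median, ERBB2 at 0.96 and ERRFI1 at 0.98 in the authors' table, ERRFI1 at 0.98 by quantile normalization, and ERBB2 at 0.92 and ERBB3 at 0.68 with normexp. Without the filter ERBB2 (adjusted p = 0.0518) and ERBB3 (adjusted p = 0.0582) missed the threshold, as did the EGFR probe named for NM_201283 (adjusted p = 0.0940), and the mean of both ERBB3 probes was 0.21 (adjusted p = 0.355). By the methods' t-test ERBB3 missed the threshold after adjustment (adjusted p = 0.0588), and the EGFR probe named for NM_201283 missed it with or without adjustment. With normexp that EGFR probe fell under 2-fold at 0.53 (adjusted p = 0.0506) and the full-length ERBB3 probe was at -0.14, and scaled to the median the EGFR probe was at 1.08 (adjusted p = 0.0613).

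**Figure D2:**
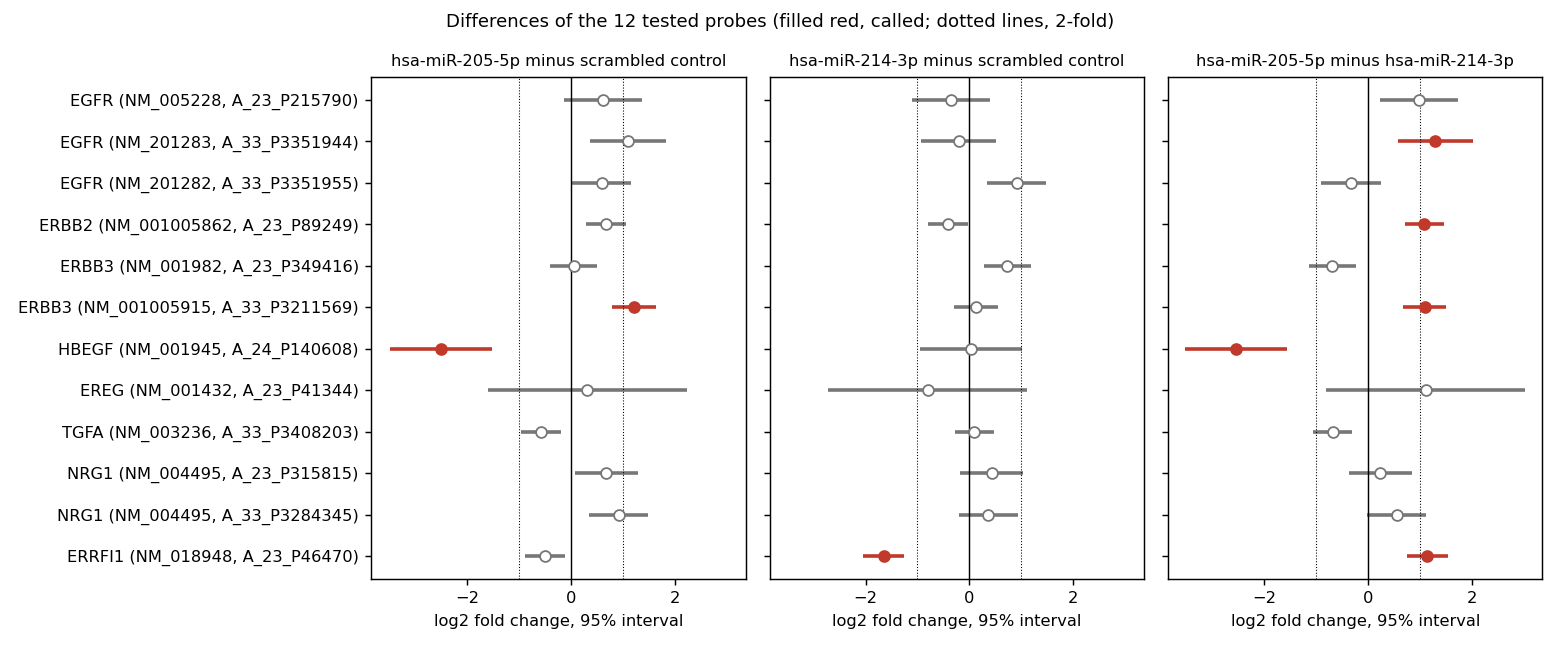
Log2 fold change with its 95% interval (horizontal axis, limma, 2 arrays per group) of the 12 tested probes, each named with its transcript and probe, in the 3 comparisons; filled red points were called and dotted lines mark 2-fold. HBEGF at -2.50 and ERRFI1 at -1.65 lie farthest from 0 against control, and the probes of ERBB3 differ from each other in every panel.

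**Figure D3:**
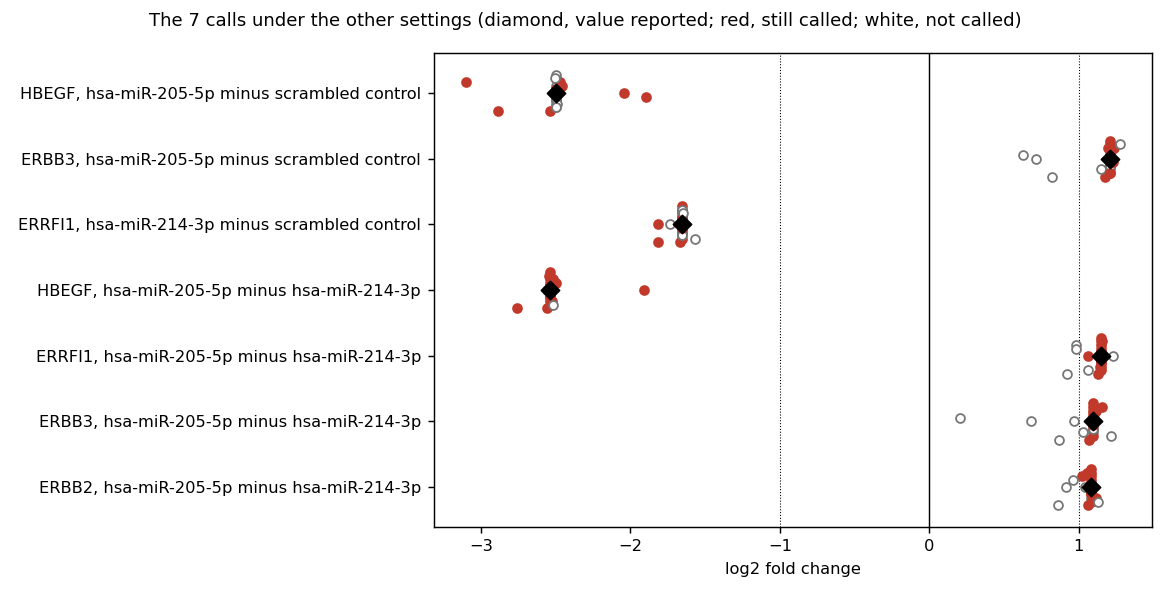
Log2 fold change (horizontal axis) of the 7 member calls under each alternative analysis; the diamond is the value reported, red circles were still called, white circles were not, and dotted lines mark 2-fold. HBEGF and ERRFI1 against control stay beyond 2-fold at every point, whereas the ERBB3 points against control reach down to 0.63.

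The rest of the pathway was described from 80 genes in lists of ligands, shedding, adaptors, cascades and receptor turnover, of which 63 were tested. Against control, hsa-miR-205-5p gave 4 called lower and 4 higher with a median log2 difference of 0.05, and hsa-miR-214-3p gave 1 lower and 0 higher with a median of 0.05, beside 0.08 and -0.01 over all genes. Over all genes 7.98% were called lower and 4.78% higher for hsa-miR-205-5p and 2.03% and 1.09% for hsa-miR-214-3p, so the pathway counts lie near the background. At an unadjusted p and 2-fold the counts by limma were 6 lower and 4 higher, and 1 lower and 2 higher. AREG, another EGFR ligand, was the one tested of 6 further ligands, at 0.46 (adjusted p = 0.092, limma) in hsa-miR-205-5p and -0.28 (adjusted p = 0.334) in hsa-miR-214-3p cells. ERBB4, the remaining receptor, did not pass the filter.

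Among 17 tested adaptors and direct effectors, 2 fell and 2 rose in hsa-miR-205-5p cells, with a median of -0.61. The medians of the other lists were 0.63 for shedding and export, 0.37 for downregulation and chaperones, -0.13 for PI3K to AKT and -0.21 for RAS to ERK. GRB2, the adaptor that couples receptors to the RAS exchange factor SOS, fell by 1.63 (adjusted p = 0.0091, limma), and the adaptor CRK also fell by 1.63 (adjusted p = 0.0136). GRB7, an adaptor encoded beside ERBB2, rose by 1.28 (adjusted p = 0.0456), and the phospholipase PLCG2 rose by 1.10 (adjusted p = 0.0122). Of 8 tested shedding and export genes 2 rose, CNIH4, a homologue of the export receptor of TGFA-like ligands, by 1.28 (adjusted p = 0.0111) and RHBDF2, a regulator of the sheddase ADAM17, by 1.03 (adjusted p = 0.0307). Among 17 genes of receptor downregulation and chaperones, HSP90AB1 fell by 2.38 (adjusted p = 0.0137), and 0 rose, also at an unadjusted p. Of 11 tested PI3K to AKT genes 0 were called by limma for either precursor, and 0 passed at an unadjusted p and 2-fold. In hsa-miR-214-3p cells the one called gene was MAPK3, which encodes the kinase ERK1 and fell by 1.89 (adjusted p = 0.0263). Values of single pathway genes under the alternative analyses are not given here. The MAPK3 call was lost in the fit on the 4 arrays, with the replicate block and without the filter, where 0 probes were called for hsa-miR-214-3p. By the methods' t-test adjusted, 0 probes were called against control for either precursor, so all these calls were lost.

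Between the precursors 10 of the 63 genes were lower and 9 higher in hsa-miR-205-5p cells, where 11.3% and 9.18% of all genes were. Among the larger of these differences were those of HSP90AB1 (-2.88), RHBDF2 (1.76), CRK (-1.72), MAPK3 (1.68) and ADAM17 (-1.66), with adjusted p between 0.0053 and 0.0348 in limma. GRB7 was not well above background in hsa-miR-214-3p cells and STAT3 was not in hsa-miR-205-5p cells, so that each has only a bound and no place in this order, with GRB7 at least 2.95-fold higher (adjusted p = 0.0113) and STAT3 at least 2.80-fold lower (adjusted p = 0.0194) in hsa-miR-205-5p cells. Both passed the filter through a group in which they were higher.

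**Figure D4:**
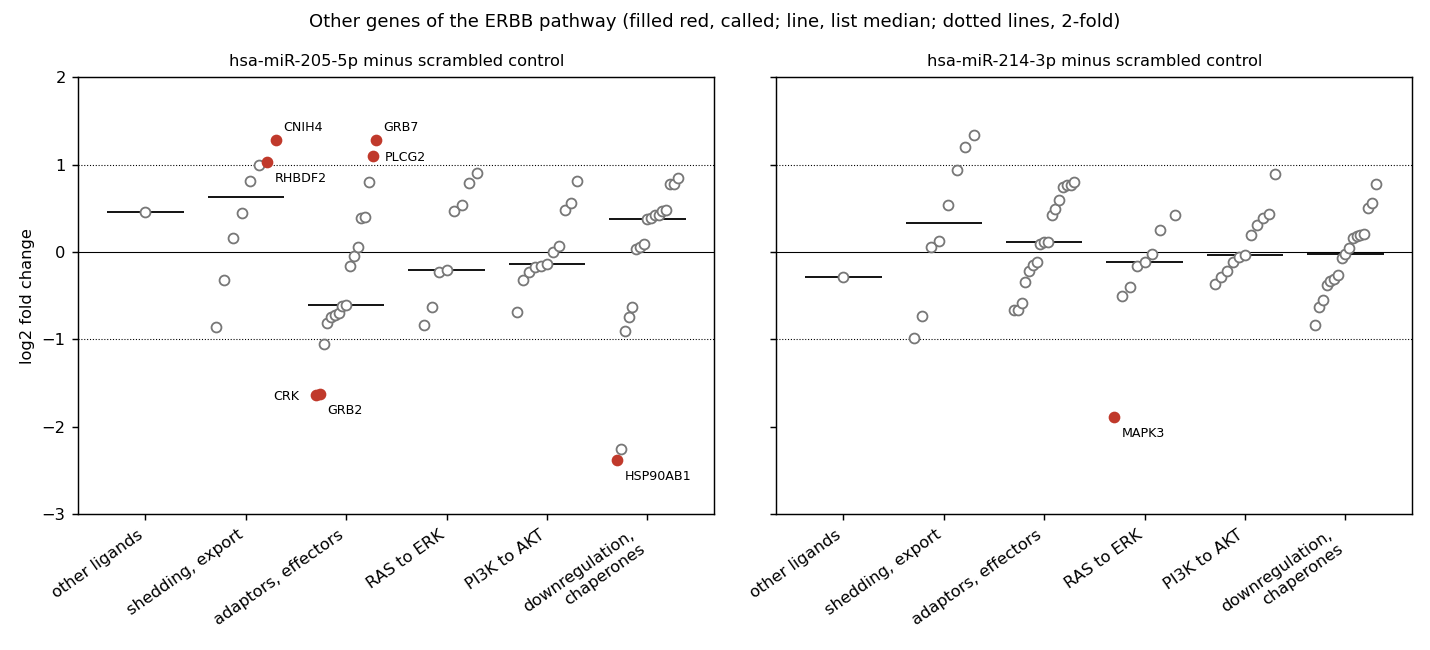
Log2 fold change from scrambled control (vertical axis) of the tested genes of the pathway lists but one that is not reported here, grouped by role along the horizontal axis, for each precursor; filled red points were called, horizontal bars are list medians and dotted lines mark 2-fold. For hsa-miR-205-5p HSP90AB1 lies lowest at -2.38 and 4 called genes lie above 0, and for hsa-miR-214-3p MAPK3 is called.

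The identity of the cells was checked on marker genes. All 6 mesenchymal and basal markers of the line (VIM, CD44, CAV1, ANXA1, S100A4 and MSN) were well above background on all arrays. Of the 8 luminal markers, ESR1, PGR and FOXA1 were on none, whereas the other 5 (KRT8, KRT18, XBP1, GATA3 and CDH1) were on all 6. The summed level of the 8 luminal markers, in multiples of the 75th percentile, was 1075 to 1120 in hsa-miR-205-5p cells, 699 to 778 in hsa-miR-214-3p cells and 718 to 883 in control cells, and that of the 6 mesenchymal and basal markers was 1244 to 1253, 1406 to 1441 and 1377 to 1460. Signals were summed on the linear scale, so KRT18, KRT8 and XBP1 made up nearly all of the luminal sum. Their mean log2 signals were 9.16, 7.63 and 6.37, beside 0.38 for GATA3 and -0.61 for CDH1. Of the 5 tested luminal markers 1 was called, CDH1, the epithelial cadherin, which rose by 1.96 on the log2 scale (adjusted p = 0.0080, limma) in hsa-miR-205-5p cells. Of 6 markers of other cell types CD68 was well above background on all arrays, PECAM1 on 3 and PTPRC on 2, whereas CD3E, COL1A1 and ALB were on none, and the sum of the 6 was 4.72 to 5.83 in hsa-miR-205-5p, 10.5 to 10.8 in hsa-miR-214-3p and 8.42 to 11.8 in control cells. Most of that sum was CD68, at a mean log2 signal of 2.82 beside -1.35 for PECAM1. CD68 was lower in hsa-miR-205-5p than in control cells by a log2 difference of -1.05 (adjusted p = 0.0449, limma). PECAM1, not well above background in hsa-miR-205-5p cells, was at least 2.25-fold lower there (adjusted p = 0.0090), but it passed the filter only through a group in which it was higher. The luminal sum was thus highest in the group where ERBB2 and the ERBB3 probe named for NM_001005915 read highest, though not the full-length ERBB3 probe, and its part in those results was not tested. Fewer cells with an RNA and less of that RNA per cell cannot be told apart in such bulk samples.

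Likeness of pattern was described over the 6 arrays, among 10218 genes well above background on all of them. The genes with the highest Pearson correlation to the full-length EGFR probe were CDC26 (0.994), ARHGEF15 (0.994) and PIK3R2 (0.992), and 616 genes lay above 0.9. For the short-transcript probe of ERBB3 they were MYO6 (0.996), SOCS2-AS1 (0.993) and MISP (0.993), and 889 genes lay above 0.9. The 6 points of each correlation are 3 groups of 2 arrays.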

How the data were processed

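The authors deposited Agilent Feature Extraction 11.0 scanner output for each array, in which the processed signal is a linear intensity after background subtraction, without normalization across arrays. A further deposited table holds log2 values, whose 6 columns each have a median of 3.49 and correlate with the log2 processed signal at 0.999 or more over the kept probes. The methods name GeneSpring, p-values under 0.05, a 2-fold limit and a t-test.

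Control and outlier spots (245 to 463 per array) were dropped, values of repeated spots were averaged for each probe, and each array's 75th percentile (35.1 to 58.0) subtracted from log2. A probe counted as well above background where most of its spots did. The 18468 kept probes were fitted over all 6 arrays with limma 3.58.1 (lmFit, eBayes) in R 4.3.3 with the package data.table, version 1.17.8, with 3 residual and 2.47 prior degrees of freedom and Benjamini-Hochberg adjustment over all kept probes. The fit was tested on simulated data. Figures were drawn with matplotlib 3.10.9. Symbols came from the GRCh38.p14 gene table of RefSeq, used for names only since the array design uses another build, and 83.3% of kept probes had one. An "at least" fold divides the mean of the brighter group by that of the dim group, each of whose arrays counts at the lowest signal well above background or at the probe's own where that is higher.

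The members, gene lists and tests were chosen with earlier results of these data known. All members were described, and of the pathway lists the called genes, at most 8 per comparison by size. One gene of these lists was counted and is not reported here by name. The alternatives were normexp (offset 50) on the median signal, since the files hold no mean signal, quantile normalization, scaling to the median, the authors' table, the percentile over probes that all 6 arrays show well above background, no filter and a stricter one, the fit on 4 arrays, the replicate block, trend and robust spread, the mean of a gene's probes, unadjusted p, no fold limit, the methods' t-test and leaving out each array. All arrays lay on 1 slide, so no slide block was run. Where an array was left out, the remaining one was taken to vary as the other groups do.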

Additional observations from a re-analysis of the deposited data

How the results depend on the processing

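Against control, 2 members were called for hsa-miR-205-5p and 1 for hsa-miR-214-3p, and 4 between the precursors. For hsa-miR-205-5p the count was 1 in the fit on the 4 arrays, with the mean of a gene's probes, normexp, scaling to the median or the methods' t-test unadjusted, and 0 without the filter (2 at an unadjusted p) or by that t-test adjusted (1 unadjusted). For hsa-miR-214-3p it was 0 in the fit on the 4 arrays, without the filter, with the replicate block or by the t-test adjusted, and 1 at an unadjusted p in each. In those settings 0 probes of the whole array were called for hsa-miR-214-3p, as 0 of 50599 without the filter. By the t-test adjusted 0 of 18466 probes were called for hsa-miR-205-5p as well. A member count of 0 there is the count over all probes too, so calls of pathway and marker genes were lost there as well. Between the precursors the member count was 2 without the filter, 2 with normexp and 1 scaled to the median. Leaving out 1 array gave 0 to 2, 0 to 1 and 0 to 4 in these comparisons by limma. Where it gave 0, at an unadjusted p it was 2 for hsa-miR-205-5p (without its replicate 2), 1 for hsa-miR-214-3p (without any array but scrambled control replicate 2) and 3 or 4 between the precursors (without hsa-miR-214-3p replicate 1 or 2). The other alternatives stayed within 1.5 times the count. The cause was not tested.

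Signs turned for values that were not called. For hsa-miR-214-3p against control, EGFR became 0.11 with the mean of probes, ERBB3 -0.046, HBEGF -0.13 and TGFA -0.069 scaled to the median, and HBEGF -0.14 with normexp. For hsa-miR-205-5p against control, EREG became -0.049 with normexp and -0.079 scaled to the median. Leaving out 1 array gave a range of -0.0032 to 0.24 for ERBB3 and -0.56 to 0.64 for HBEGF (hsa-miR-214-3p against control), -0.93 to 1.55 for EREG (hsa-miR-205-5p against control) and -0.12 to 2.36 for EREG between the precursors. Among probes that are not the brightest of their gene, the full-length ERBB3 probe ran from -0.34 to 0.22 (hsa-miR-205-5p against control), the EGFR probe named for NM_201283 from -0.42 to 0.0062 (hsa-miR-214-3p against control) and that named for NM_201282 from -0.55 to 0.0058 between the precursors. Scaling to the median moved the median of all probes to -0.34, -0.17 and -0.13 in the 3 comparisons, from 0.05, -0.01 and 0.09.

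Deviations of same-numbered arrays correlated at 0.0082, -0.051 and 0.109. These values cannot tell whether the replicate numbers paired the samples, because each group gives only the difference between its replicates. Under the replicate block the counts of called members were 2, 0 and 4.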
